A study of Mus musculus with 6 samples.

Results

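The 9 genes described here take part in the choice between the CD4 and CD8 lineages of T cells or mark helper and regulatory T cells, and all 9 were found by symbol among the 35458 genes of the deposited tables. They are Zbtb7b, Gata3, Runx3, Runx1, Cd4, Cd40lg, Foxp3, Ikzf2 and Bcl6, and they are read as a measure of lineage purity and of RNA from other cells in each library. The study profiled CD8+ T cells of the mouse spleen by RNA-seq in 3 control libraries of genotype Cd4cre and 3 knockout (KO) libraries of genotype Cd4creGlut10fl/fl, in which the hexose transporter Glut10 (gene Slc2a10) is floxed. Both groups carry the Cre transgene, which is driven by Cd4 regulatory sequence and is active in developing T cells of both lineages. The labels do not give age, sex, tumour status or pooling, nor whether each library is a different mouse, so p-values reflect only the variation among the 3 libraries of a group, which may be technical.

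A thymocyte that commits to the CD4 lineage switches on Zbtb7b, which encodes the repressor ThPOK, downstream of Gata3, and ThPOK in turn holds the CD8 programme off. A thymocyte that commits to the CD8 lineage switches on Runx3, whose product silences both Zbtb7b and Cd4, with Runx1 acting on the Cd4 silencer at an earlier stage. A pure population of mature CD8+ T cells is therefore known for high Runx3 and for low Zbtb7b, Cd4 and Cd40lg. Foxp3 and Ikzf2 belong to regulatory T cells and Bcl6 to follicular helper T cells, although several of the 9 genes are also used outside the T lineage: Runx1 and Zbtb7b in myeloid cells, Cd4 in some splenic macrophages and dendritic cells, Bcl6 in B cells and myeloid cells, and Gata3 and Ikzf2 in innate lymphocytes.

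Slc2a10, the targeted gene, was near the limit of detection in all libraries, with 4, 2 and 2 implied reads in controls 1 to 3 (0.0946, 0.0373 and 0.0373 FPKM) and 0 in each KO library, so it gives little check of the labels at this depth. Levels are in FPKM, which divides the fragments of a gene by its length and by the depth of the library, so that genes can be compared. The totals implied by the values were 11840600 to 15036200 fragments in the controls and in KO 2, but 3420280 in KO 1 and 3004530 in KO 3. Genes at 1 FPKM or more numbered 18934 in KO 1 and 19268 in KO 3, against 12200 to 13713 in the other libraries. How this bears on the filter and on the shares over all genes was not tested. Control 2 and control 3 stood apart by neutrophil RNA: the 12 neutrophil markers summed to 16770 and 29268 FPKM there, against 440 in control 1 and 72.4 to 708 in the KO libraries, and none of these markers was at 0 in any library. The 18 T cell core genes summed to 989 and 693 FPKM in control 2 and control 3, 2325 in control 1 and 2462 to 3506 in the KO libraries. The groups also differed in sex-linked RNA. Xist is transcribed from the inactive X chromosome of females. It measured 19.8, 22 and 40.5 FPKM in controls 1 to 3 and at most 0.473 in the KO libraries. Y-linked Ddx3y measured 1.82, 0.166 and 0 FPKM in controls 1 to 3 and 19.7 to 29.5 in the KO libraries. It had 112, 13 and 0 implied reads in controls 1 to 3, and Y-linked Eif2s3y had 107, 13 and 1. Control 1 thus held some Y-linked RNA beside Xist, and its source was not tested. An effect of genotype and one of sex cannot be told apart. In such bulk samples, fewer cells of a type and less RNA per cell cannot be told apart either.

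**Figure D1:**
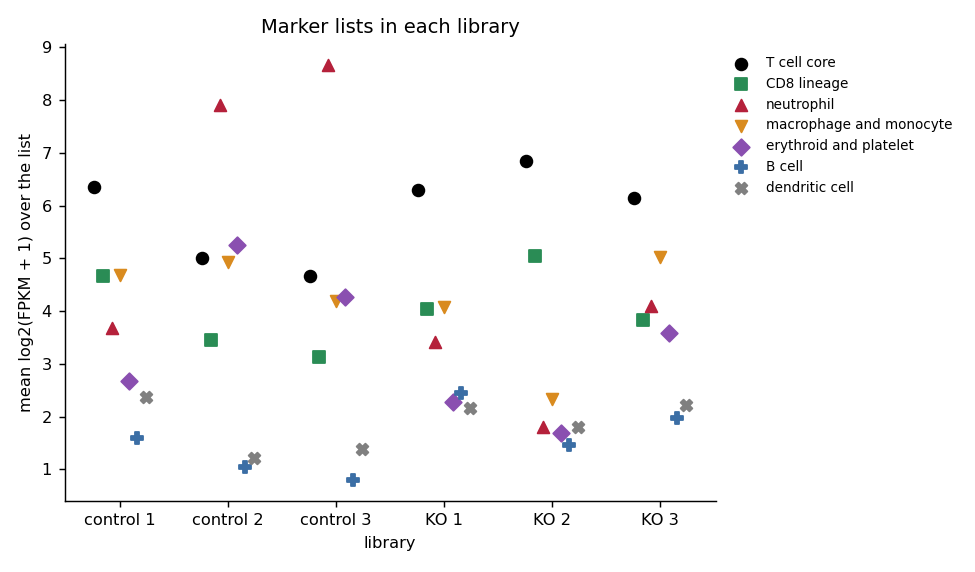
Mean log2(FPKM + 1) of marker lists (vertical axis) in each of the 6 libraries (horizontal axis), 1 symbol per list. The neutrophil list stands at 7.90 and 8.67 in control 2 and control 3 and between 1.81 and 4.10 in the other libraries, while the T cell core list is lowest in control 2 and control 3.

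The promoters of Runx3 and Runx1 and of Zbtb7b are shown because these genes regulate each other and because 1 value per gene cannot separate their alternative start sites. RefSeq (build GRCm38.p6) gave 11 promoters, from 250 bases before to 50 bases after a start, for 6 of the 9 genes. Capitals mark each copy of TGTGGT, the core of the Runx binding motif, or of its reverse complement ACCACA. The distal promoters of Runx3 (chr4:135120395-135120694, plus strand) and of Runx1 (chr16:92826025-92826324, minus strand) and the distal and proximal promoters of Zbtb7b (chr3:89393329-89393628 and chr3:89387622-89387921, minus strand) read as follows, 5′ to 3′.
Runx3 distal: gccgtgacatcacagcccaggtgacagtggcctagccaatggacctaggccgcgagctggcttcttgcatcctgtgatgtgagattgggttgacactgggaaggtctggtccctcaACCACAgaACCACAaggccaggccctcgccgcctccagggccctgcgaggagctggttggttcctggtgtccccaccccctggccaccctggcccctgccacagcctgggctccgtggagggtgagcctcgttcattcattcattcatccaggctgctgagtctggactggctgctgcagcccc
Runx1 distal: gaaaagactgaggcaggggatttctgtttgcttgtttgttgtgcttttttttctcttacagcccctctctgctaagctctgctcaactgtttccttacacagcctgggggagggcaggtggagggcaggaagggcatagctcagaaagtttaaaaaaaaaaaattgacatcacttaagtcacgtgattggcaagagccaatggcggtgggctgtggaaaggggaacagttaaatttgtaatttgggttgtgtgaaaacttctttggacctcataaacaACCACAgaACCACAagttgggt
Zbtb7b distal: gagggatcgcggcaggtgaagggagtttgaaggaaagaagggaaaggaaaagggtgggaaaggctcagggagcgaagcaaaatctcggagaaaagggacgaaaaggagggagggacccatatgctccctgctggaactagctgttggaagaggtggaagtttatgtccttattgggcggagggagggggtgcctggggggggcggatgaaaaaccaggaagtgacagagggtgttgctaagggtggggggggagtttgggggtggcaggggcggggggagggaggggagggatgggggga
Zbtb7b proximal: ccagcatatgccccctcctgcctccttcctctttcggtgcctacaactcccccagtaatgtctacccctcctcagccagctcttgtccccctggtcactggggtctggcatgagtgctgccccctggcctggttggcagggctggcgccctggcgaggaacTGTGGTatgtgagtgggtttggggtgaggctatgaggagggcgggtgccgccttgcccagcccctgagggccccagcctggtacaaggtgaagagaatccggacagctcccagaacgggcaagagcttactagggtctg

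The distal promoters of Runx3 and Runx1 each held 2 copies of ACCACA with 2 bases between them, beginning at -134 and -126 relative to the start in Runx3 and at 29 and 37 in Runx1. This arrangement, on either strand, was present in 7 of 32851 promoters (0.0213%), and the third family member, Runx2, was also among them. A single copy was present in 16.8% of promoters. The proximal Zbtb7b promoter held 1 copy, at -89, and its distal promoter held none. The proximal promoters of Runx3 and Runx1 held none within this window. The sequence AGATAA, bound by Gata3 and its relatives, was searched with its reverse complement TTATCT and overlapped no Runx match in these promoters. It was present in 11.2% of promoters and, among those of the 9 genes, in 1 of the 2 Foxp3 promoters.

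None of the 9 genes passed the test between KO and control. All 9 passed the filter of at least 1 FPKM in at least 3 libraries. With limma on log2(FPKM + 1), 0 of 9 had an adjusted p under 0.05, where 0% of the 13956 genes tested did, and limma-voom on implied reads also called 0. Cd40lg passed that filter through the controls alone, as no KO library reached 1 FPKM, so its lower values in KO were fixed by entering the test and it is left out of what the following counts show. At an unadjusted limma p under 0.05 stood Zbtb7b and Cd4 with lower values in KO, where the share over all genes tested was 6.46%, and 1 gene with higher values (Gata3), where it was 5.33%. Every KO library lay below every control for Zbtb7b and Cd4, as for 9.44% of all genes tested, and above every control for Ikzf2, as for 6.70%. The median log2 difference (KO minus control) was -0.58 over the 9 genes, Cd40lg included, and 0.10 over all genes tested. Without control 2 and control 3, the KO libraries lay below control 1 for Zbtb7b, Runx3, Cd4 and Bcl6 (27.0% of all genes tested) and above it for Ikzf2 (12.6%). Without KO 1 and KO 3, KO 2 lay below every control for Zbtb7b, Runx1 and Cd4 (29.1%) and above for Ikzf2 (25.1%).

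**Figure D2:**
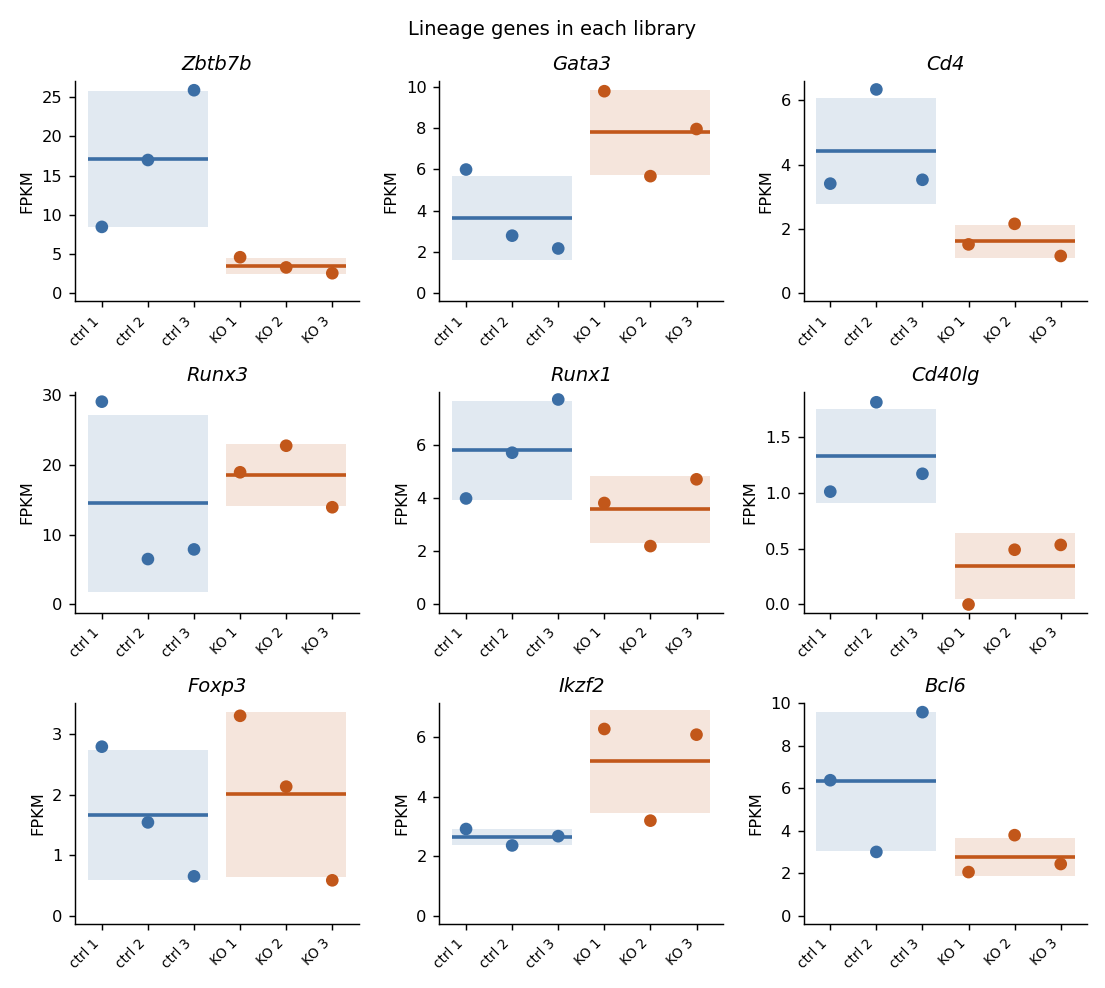
FPKM (vertical axes, linear, a scale of its own per panel) of the 9 genes in each library, with the mean (line) and SD (shading) of 3 controls (blue) and 3 KO libraries (orange). Zbtb7b, Cd4 and Cd40lg are lower in every KO library than in every control, Ikzf2 is higher in every KO library, and the groups overlap for the other 5 genes.

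Zbtb7b, which encodes the CD4 lineage factor ThPOK, had the widest difference between the groups of the 9 genes. It measured 8.47, 17.0 and 25.9 FPKM in controls 1 to 3 and 4.60, 3.30 and 2.56 in KO libraries 1 to 3. Every control lay above every KO library, and the values of control 2 and control 3 were at least 2-fold that of control 1. The means were 17.1 ± 8.73 and 3.49 ± 1.03 FPKM (SD, n = 3 each), a log2 difference of -1.91 (95% interval -2.97 to -0.86, limma adjusted p = 0.417). Among the controls, the neutrophil sum was highest in control 3, next in control 2 and then far lower in control 1. It was 440 FPKM in control 1 and 708 in KO 3, the library with the lowest Zbtb7b value. The part of neutrophil RNA in the Zbtb7b values was not tested. Without control 2 and control 3, the log2 difference was -1.10, and without KO 1 and KO 3 it was -1.95. Without control 1, Zbtb7b was the 1 gene of the 9 to pass (log2 difference -2.32, limma adjusted p = 0.0428, against a range of 0.0428 to 0.997 over 14 alternatives), where 1.55% of genes tested passed with lower values. Its antisense neighbour Gm15417, which shares 116 exonic bases with it, measured 0.405, 1.72 and 2.39 FPKM in the controls and at most 0.798 in KO. The strand setting of the counting is not given in the sources used here, so reads of this pair cannot be told apart.

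Gata3 acts upstream of Zbtb7b in CD4 commitment and also maintains mature T cells of both lineages. It measured 5.99, 2.79 and 2.17 FPKM in controls 1 to 3 and 9.78, 5.67 and 7.95 in KO libraries 1 to 3. Control 1 lay just above KO 2, so the groups overlapped, and KO 1 and KO 3 were the highest. The means were 3.65 ± 2.05 and 7.80 ± 2.06 FPKM, a log2 difference of 0.98 (95% interval 0.03 to 1.93, limma adjusted p = 0.417). The difference was 0.30 without control 2 and control 3, the libraries with the least T cell RNA. Between control 1 and KO 2 alone, Gata3 and Zbtb7b both had lower values in KO, with log2 differences of -0.07 and -1.14.

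Runx3, the CD8 lineage factor, measured 29.0, 6.49 and 7.87 FPKM in controls 1 to 3 and 18.9, 22.7 and 13.9 in KO libraries 1 to 3. Control 1 was the highest library of all 6 and control 2 and control 3 the lowest, so the KO libraries lay between them. The means were 14.5 ± 12.6 and 18.5 ± 4.42 FPKM, a log2 difference of 0.61 (95% interval -0.73 to 1.94, limma adjusted p = 0.590). Without control 2 and control 3 the direction turned, to -0.65. Cd8a, the CD8 coreceptor chain, followed the same order, with 191, 30.3 and 31.8 FPKM in the controls and 101, 252 and 90.7 in KO, apart from KO 2 being its highest library.

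Runx1, the paralogue that acts in early thymocytes and is also a blood stem cell and myeloid factor, measured 3.98, 5.70 and 7.70 FPKM in controls 1 to 3 and 3.81, 2.19 and 4.70 in KO libraries 1 to 3. KO 3 exceeded control 1, and KO 2 was the lowest. The means were 5.79 ± 1.86 and 3.57 ± 1.27 FPKM, a log2 difference of -0.58 (95% interval -1.45 to 0.30, limma adjusted p = 0.456). The difference was -0.16 without control 2 and control 3 and -1.05 without KO 1 and KO 3. Gm26626, antisense to Runx1 and sharing 106 exonic bases, measured 10.6 and 17.3 FPKM in control 2 and control 3 and at most 0.573 in the other libraries. Runx3 exceeded Runx1 in every library, and the gap was narrowest in control 2 and control 3.

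The ratio of the CD8 factor to the CD4 factor was higher in every KO library than in every control. Zbtb7b alone also separated the groups, and Runx3 alone did not. The share of other gene pairs that separate them was not computed. The log2 ratio of Runx3 to Zbtb7b (each FPKM + 1) was 1.66, -1.26 and -1.60 in controls 1 to 3 and 1.83, 2.46 and 2.07 in KO libraries 1 to 3. Runx3 thus exceeded Zbtb7b in control 1 and in every KO library, and Zbtb7b exceeded Runx3 in control 2 and control 3. The means were -0.40 ± 1.80 and 2.12 ± 0.32 (SD, n = 3 each), a difference of 2.52, with an exact two-sided permutation p = 0.1, the smallest that 3 against 3 libraries can give (0.15 after Benjamini-Hochberg adjustment over 3 ratios). Control 1 lay just below the lowest KO library, and control 2 and control 3 far below it. Without control 1 the difference was 3.55, and without control 3 it was 1.92. The value of control 1 alone was 1.66, beside the KO mean of 2.12.

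Cd4, the coreceptor of helper T cells, was low in all 6 libraries. It measured 3.41, 6.34 and 3.53 FPKM in controls 1 to 3 and 1.52, 2.16 and 1.16 in KO libraries 1 to 3, resting on 163 implied reads in control 1, 128 in KO 2, 21 in KO 1 and 14 in KO 3. Every KO library lay below every control, and control 2 was the highest. The means were 4.43 ± 1.66 and 1.61 ± 0.509 FPKM, a log2 difference of -1.03 (95% interval -1.85 to -0.21, limma adjusted p = 0.417). The difference was -0.77 without control 2 and control 3 and -0.74 without KO 1 and KO 3. The 15 macrophage and monocyte markers, cells that can carry Cd4 in the spleen, summed to 2159, 4781 and 4730 FPKM in the controls and 918, 409 and 2184 in KO, none of them at 0 in any library. Most of this sum was Lyz2, a lysozyme gene that neutrophils share, at 1700, 3932 and 4208 FPKM in the controls and 628, 254 and 1590 in KO. Members of this list differed in their order of libraries. C1qa measured 15.1, 18 and 8.76 FPKM in the controls and 12.1, 0.262 and 70.1 in KO. Csf1r measured 25.6, 22.1 and 24 FPKM in the controls and 13.1, 5.49 and 22.6 in KO. Of the 15 genes, 13 had lower and 2 higher estimates in KO. The part of these cells in the Cd4 values was not tested.

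Relative to Cd8a, Cd4 was a minor transcript in every library. Cd8a exceeded Cd4 (each FPKM + 1) 43.4-fold in control 1, 4.27-fold in control 2 and 7.25-fold in control 3, and 40.3-fold, 80.1-fold and 42.5-fold in KO libraries 1 to 3. Control 1 fell within the range of the KO libraries, and control 2 and control 3 lay far under it. On the log2 scale the means were 3.46 ± 1.75 and 5.69 ± 0.55 (SD, n = 3 each; exact two-sided permutation p = 0.3, and 0.3 adjusted over 3 ratios). Relative to the mean of Cd3d, Cd3e and Cd3g, the invariant chains of the T cell receptor complex, the log2 level of Cd4 stood at -4.44, -2.38 and -2.70 in controls 1 to 3 and at -5.08, -5.50 and -5.33 in KO. Here every KO library lay below every control, as for 25.4% of all genes tested on this scale, with means of -3.17 ± 1.11 and -5.30 ± 0.22 (exact two-sided permutation p = 0.1, the smallest possible, and 0.15 adjusted over 3 ratios).

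**Figure D3:**
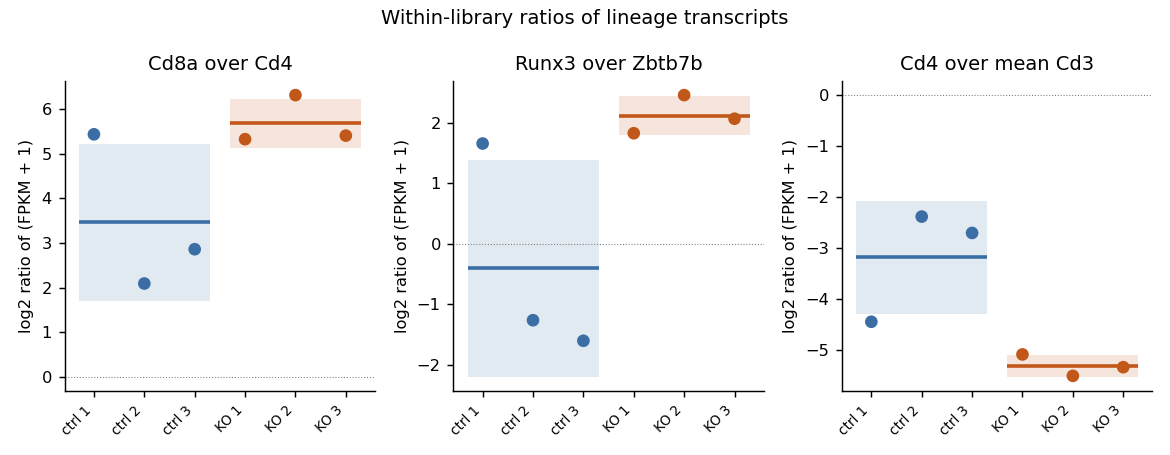
Log2 ratios of FPKM + 1 (vertical axes) within each library, for Cd8a over Cd4, Runx3 over Zbtb7b and Cd4 over the mean of Cd3d, Cd3e and Cd3g, with group mean (line) and SD (shading) of 3 libraries. Control 1 lies nearer to the KO libraries than control 2 and control 3 do in all panels.

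Zbtb7b exceeded Cd4 in every library, by 2.48-fold, 2.68-fold and 7.35-fold in controls 1 to 3 and by 3.02-fold, 1.53-fold and 2.21-fold in KO libraries 1 to 3. Control 3 had the highest ratio, and control 1 and control 2 lay within the range of the KO libraries.

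Cd40lg encodes the CD40 ligand, the signal by which helper T cells license B cells and dendritic cells, and lies on the X chromosome. It was the lowest of the 9 genes in the KO libraries, at 0, 0.490 and 0.533 FPKM in KO libraries 1 to 3 against 1.01, 1.81 and 1.17 in controls 1 to 3. Every KO library lay below every control, which entry through the filter had fixed. The depth was slight: 15, 34 and 22 implied reads in the controls and 0, 9 and 2 in KO, where 3 reads, the limit that a count of 0 allows, equal 0.702 FPKM in KO 1. The log2 difference was -0.81 (95% interval -1.55 to -0.07, limma adjusted p = 0.417), and -2.06 with a pseudocount of 0.1. This limit lies below the lowest control. The value in KO 3 rests on 2 reads and is accordingly imprecise.

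Bcl6, the repressor that defines follicular helper T cells and germinal centre B cells, measured 6.38, 3.0 and 9.59 FPKM in controls 1 to 3 and 2.05, 3.79 and 2.43 in KO libraries 1 to 3. Control 2 lay below KO 2, so the groups overlapped, and control 3 was the highest. The means were 6.32 ± 3.29 and 2.76 ± 0.915 FPKM, a log2 difference of -0.88 (95% interval -1.93 to 0.17, limma adjusted p = 0.417). The 10 B cell markers summed to 42.6, 16.7 and 11.2 FPKM in the controls and 84.3, 44.7 and 62.0 in KO. Fcer2a was at 0 in control 2. Of 9 follicular helper genes tested, 8 had higher and 1 lower estimates in KO. The log2 differences of Cxcr5 and Sh2d1a, the members of smallest p, were 1.28 and 1.31. The part of either cell type in the Bcl6 values was not tested.

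Foxp3, the factor of regulatory T cells and also X-linked, differed within each group more than between them. It measured 2.79, 1.54 and 0.650 FPKM in controls 1 to 3 and 3.30, 2.13 and 0.584 in KO libraries 1 to 3. Both groups spanned nearly the same range, with 1 low library in each. The log2 difference was 0.14 (95% interval -1.06 to 1.35, limma adjusted p = 0.903), and its sign turned under 4 of 14 alternatives. Flicr, a noncoding gene that shares 853 exonic bases with Foxp3, measured 0.153 to 1.68 FPKM, and Ppp1r3f on the other strand shares 266, so reads of these genes may be counted together. Foxp3 transcripts were present in every library.

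Ikzf2, which encodes Helios, a factor of regulatory T cells and of some CD8+ and innate lymphocytes, measured 2.92, 2.37 and 2.68 FPKM in controls 1 to 3 and 6.27, 3.20 and 6.08 in KO libraries 1 to 3. Every KO library lay above every control, with KO 2 just above control 1 and KO 1 and KO 3 well above both. The means were 2.66 ± 0.272 and 5.18 ± 1.72 FPKM, a log2 difference of 0.72 (95% interval -0.06 to 1.50, limma adjusted p = 0.417), and 0.20 without KO 1 and KO 3. Gm28112, a noncoding model inside an Ikzf2 intron, measured 10.1 and 10.3 FPKM in KO 1 and KO 3, the libraries of lowest total, and at most 0.721 in the other libraries. The part of intronic reads in the Ikzf2 values was not tested.

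**Figure D4:**
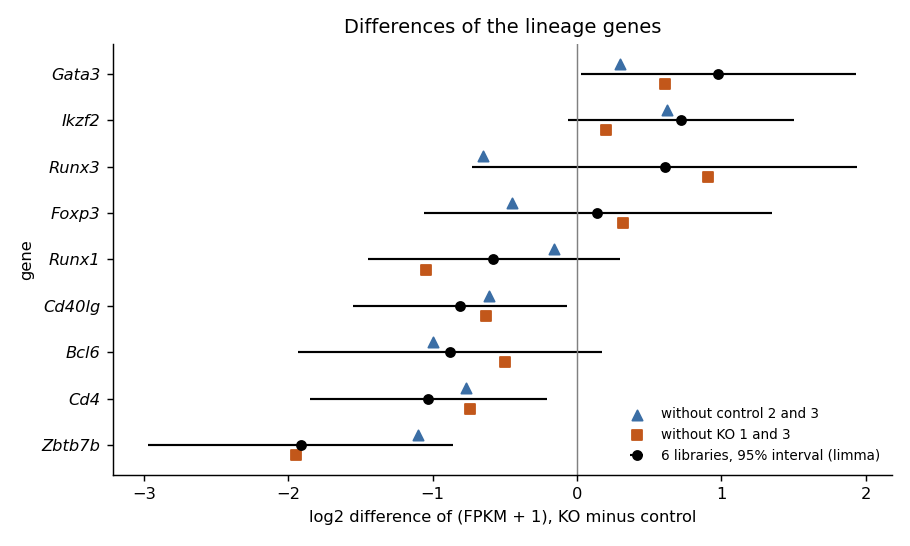
Log2 difference of FPKM + 1, KO minus control (horizontal axis), for the 9 genes (vertical axis), from limma on 6 libraries with its 95% interval (black), without control 2 and control 3 (triangles) and without KO 1 and KO 3 (squares). Runx3 and Foxp3 change sign without control 2 and control 3, while the other 7 genes keep theirs in both.

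The Cd3 mean was itself 1.10 higher in KO on the log2 scale, so that scaling to it moved the median difference of all genes tested to -1.0 and placed every KO library below every control for 25.4% of them. On this scale Zbtb7b, Cd4, Bcl6 and Cd40lg lay lower in every KO library than in every control. The log2 differences were -3.01 for Zbtb7b, -2.13 for Cd4, -1.98 for Bcl6 and -1.91 for Cd40lg, and Cd40lg entered through the controls alone. For Runx1 the difference was -1.67, with overlap. For Runx3 it was -0.49, for Ikzf2 -0.38, for Foxp3 -0.96 and for Gata3 -0.12, also with overlap. The scaled value of Runx3 spanned only -2.60 to -1.67 over all 6 libraries, against -5.06 to -0.12 for Zbtb7b. No test was made on these scaled values other than that for Cd4.

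Control 1 and KO 2 were both low in neutrophil RNA beside control 2 and control 3, and had totals of 11840600 and 14683400. They were compared alone after the data were seen. They were not matched in the sex-linked RNA given above, nor in myeloid RNA. The neutrophil markers summed to 440 FPKM in control 1 and 72.4 in KO 2, and the macrophage and monocyte markers to 2159 and 409. The part of this gap in the ratios that follow was not tested. With 1 library per group, the intervals cover counting error only and compare these libraries, not the genotypes. KO 2 held 0.390 of the Zbtb7b level of control 1 (95% interval 0.336 to 0.451), 0.552 of that of Runx1 (0.483 to 0.629), 0.594 of that of Bcl6 (0.519 to 0.681) and 0.633 of that of Cd4 (0.498 to 0.803). Runx3 stood at 0.783 (0.731 to 0.838) and Foxp3 at 0.764 (0.603 to 0.966). For Gata3 the ratio was 0.947 (0.805 to 1.11), for Ikzf2 1.10 (0.963 to 1.25) and for Cd40lg 0.484 (0.187 to 1.18), intervals that include equality. The interval of Cd40lg spans that of Zbtb7b, so which of the pair had the lower ratio is not established.

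In the controls the mean ran from Zbtb7b (17.1 FPKM) through Runx3, Bcl6, Runx1, Cd4, Gata3, Ikzf2 and Foxp3 to Cd40lg (1.33). The ranges of all neighbours in this order overlapped across the controls, although Ikzf2 exceeded Foxp3 within each control. In the KO libraries Runx3 (18.5 FPKM) came first and lay above the next gene, Gata3, in all 3 libraries. Ikzf2, Runx1, Zbtb7b, Bcl6, Foxp3 and Cd4 followed, and Cd40lg (0.341) came last, below Cd4 in all 3. Rank 1 of Zbtb7b in the controls came from control 2 and control 3, since in control 1 Runx3 (29.0 FPKM) exceeded Zbtb7b (8.47), as in every KO library.

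Other genes of these lineages were read from lists, and 0 members of any list passed limma over all genes. Of 18 further lineage choice regulators, 10 had higher and 8 lower estimates in KO, with a median log2 difference of 0.19 against 0.10 over all genes tested. Without control 2 and control 3, 3 had higher and 15 lower estimates (median -0.34, against -0.06 over all genes tested). Lef1 and Satb1, which promote T cell identity, had the smallest p among them: Lef1 measured 49.1, 7.71 and 5.94 FPKM in the controls and 63.7, 47.2 and 63.6 in KO, and Satb1 26.9, 8.36 and 7.84 against 25.6, 24.1 and 22.4. Both were low in control 2 and control 3 alone. Cbfb, the shared partner of Runx1 and Runx3, measured 46.5, 48.5 and 55.6 FPKM in the controls and 34.6, 51.2 and 34.5 in KO, without the drop of Runx3 in control 2 and control 3. Zbtb7a, the closest relative of Zbtb7b named here, measured 18.9, 13.5 and 20.5 FPKM against 18.4, 14.0 and 10.7.

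Of 11 CD8 lineage genes, 10 had higher estimates and the median was 0.39, but without control 2 and control 3 the direction turned, with 2 higher and 9 lower estimates and a median of -0.45. Cd8b1, the second CD8 chain, measured 351, 77.8 and 67.7 FPKM in the controls and 329, 603 and 342 in KO, and Crtam 7.28, 3.72 and 1.40 against 6.38, 13.4 and 5.06. Of 15 helper subset genes tested, 8 had higher and 7 lower estimates, with a median of 0.01 (5 higher and 10 lower without control 2 and control 3). Every KO library lay below every control for 3 of them, Il1rl1, Il4 and Irf4, as for 9.44% of all genes tested. Il1rl1, the IL-33 receptor chain of type 2 helper cells, mast cells and regulatory T cells, measured 2.22, 6.10 and 8.67 FPKM in the controls and 1.74, 0.850 and 1.01 in KO, and Il4 1.31, 2.28 and 2.44 against 0.715, 0.333 and 1.09. Both were highest in control 2 and control 3. The Il4 values rest on 3, 6 and 4 implied reads in KO libraries 1 to 3 and are imprecise.

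Of 9 follicular helper genes tested, 8 had higher estimates, with a median of 0.49 (6 higher and a median of 0.10 without control 2 and control 3). Every KO library lay above every control for 2 of them, Cxcr5 and Sh2d1a, as for 6.70% of all genes tested. Cxcr5, the receptor that brings cells into follicles, measured 4.13, 2.06 and 1.56 FPKM in the controls and 5.62, 11.9 and 5.79 in KO. Sh2d1a, an adaptor of T cells that is not limited to helper cells, measured 4.76, 2.09 and 0.979 against 4.94, 11.6 and 6.17. Of 11 regulatory T cell genes tested, 5 had higher and 6 lower estimates, with a median of -0.08 (3 higher and 8 lower without control 2 and control 3) and no member whose groups failed to overlap. Ikzf4, a relative of Ikzf2, measured 2.83, 0.722 and 1.40 FPKM in the controls and 4.0, 2.15 and 3.28 in KO, and Izumo1r, a receptor of regulatory and other activated T cells, 6.19, 2.58 and 1.26 against 3.53, 12.0 and 4.02.

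**Figure D5:**
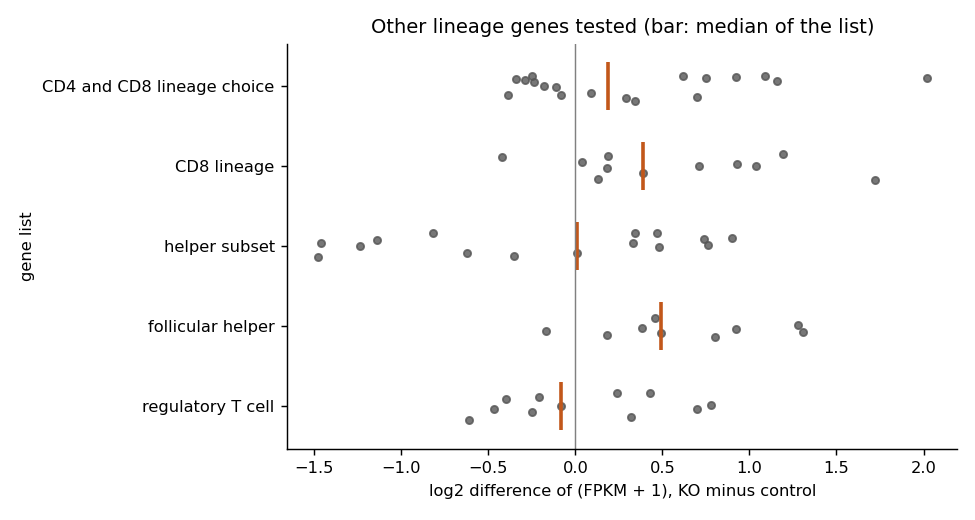
Log2 difference of FPKM + 1, KO minus control (horizontal axis), of each gene tested (points) in 5 lists of lineage genes (vertical axis), with the median of the list (bar). The medians run from -0.08 for regulatory T cell genes to 0.49 for follicular helper genes, and 0 genes passed the test.

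The marker lists of other cells gave the following values. The T cell core list had higher estimates for 18 of 18 genes (median 1.11; Cd3d 1.40), and for 11 of 18 (median 0.13) without control 2 and control 3. The neutrophil list had lower estimates for 11 of 11 tested (median -3.83; Mmp8 measured 97.0, 259 and 171 FPKM in the controls and 21.1, 14.3 and 28.0 in KO). Cxcr2, counted among them, passed the filter through the controls alone, at most 0.983 FPKM in KO, so its lower direction was fixed. Without control 2 and control 3 the neutrophil median was -0.51. Medians were -0.47 over 15 macrophage and monocyte genes, 0.48 over 7 dendritic cell genes, 0.97 over 5 B cell genes, 0.53 over 6 NK and innate lymphoid genes and -0.54 over 8 erythroid and platelet genes. Without control 2 and control 3 the sign turned for dendritic cell (-0.43), NK and innate lymphoid (-0.28) and erythroid and platelet genes (0.05). Erythroid and platelet markers summed to 344, 2159 and 959 FPKM in the controls, against 195, 63.3 and 805 in KO. Erythroid and platelet members differed in their order of libraries. Erythroid Hba-a1 measured 3.33, 853 and 362 FPKM in the controls and 1.44, 1.43 and 13.5 in KO. Platelet Pf4 measured 216, 178 and 51.5 FPKM against 147, 40.9 and 656, most of the KO 3 sum. The dendritic cell markers summed to 128, 58.1 and 47.3 FPKM, against 83.0, 116 and 110, with Cd209a at 0 in control 2 and control 3. Much of this sum was Bst2, at 84.2, 47.1 and 29.2 FPKM against 41.1, 81.2 and 72.2, while Clec9a measured at most 1.21. The NK and innate lymphoid markers summed to 415, 70.0 and 39.3 FPKM, against 547, 288 and 432, mostly from Il7r, which T cells also express.

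Likeness to a gene was measured as the root mean square difference between log2(FPKM + 1) profiles over the 6 libraries, each centred on its own mean, among 10832 other protein-coding genes. The profiles nearest to Zbtb7b were those of G6pdx (0.15), the first enzyme of the pentose phosphate pathway, Npc1 (0.16), a lysosomal cholesterol transporter, and Arid3a (0.18), a DNA-binding factor. G6pdx measured 43.6, 86.5 and 119 FPKM in the controls and 27.1, 24.3 and 19.8 in KO, the same order of libraries as Zbtb7b. Nearest to Runx3 were Fntb (0.08), Rcbtb1 (0.09) and Rasgrp1 (0.12), the last an activator of Ras in T cells, which measured 32.6, 7.66 and 10.4 FPKM against 20.0, 26.4 and 13.8. Nearest to Cd4 were Ggta1 (0.09), Hmga1 (0.10) and Xbp1 (0.15). Ggta1 measured 16.2, 24.6 and 17.4 FPKM in the controls and 9.75, 10.8 and 7.35 in KO, so that, as for Cd4, control 2 was highest and KO 2 the highest KO library. With 6 libraries and this many genes, close profiles are found for many genes, and these values are a description.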

How the data were processed

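The authors deposited 1 FPKM value per Ensembl gene and library for 35458 genes in 6 libraries of splenic CD8+ T cells. That these are FPKM was read from the values, since the labels state no unit. Per the submitters' processing notes, Bowtie2 2.2.3, HISAT2 2, HTSeq 0.6.0 and build mm8 were used, in roles not given in the sources used here, and strand setting and annotation are not given either. Symbols and exon lengths came from GENCODE M21 (35358 genes matched), whose build differs, so gene coordinates are not printed. FPKM times exon length gave reads within 0.02 of a whole number for 92.1% to 93.4% of values under 200 reads, and with them each library's implied total. The reads were whole for all of the 9 genes but Runx1 and Foxp3, whose reads are approximate. Floors and intervals cover counting error only.

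The 13956 genes that reached 1 FPKM in 3 or more libraries were tested as log2(FPKM + 1) with limma 3.58.1 in R 4.3.3, with an intensity trend, group as the only term, all 6 libraries and Benjamini-Hochberg adjustment at 0.05. Fold changes are on that scale, which understates changes of low genes. The procedure was run on simulated reads with the same composition in all libraries, apart from the genes changed between groups. The libraries here differ far more, so that run gives no error rate for these data. Ratios were tested with an exact permutation test. The 9 genes, the lists (156 of 157 entries in 12 lists matched) and the alternatives were chosen with earlier results of these data known. Named were the 9 genes, Cd8a, Cd8b1 and the Cd3 chains, and the 3 nearest profiles of Zbtb7b, Runx3 and Cd4. From each list at most 2 genes by smallest p were also named (not all are reported). Cbfb, Zbtb7a, Irf4, Il7r, Lyz2, C1qa, Csf1r, Cxcr2, Pf4, Bst2, Clec9a, Xist, Ddx3y, Eif2s3y and the overlapping genes were chosen after their values were seen. No libraries of a group agreed within sampling noise (chi-square per gene 14.3 to 169). Python 3.11.15, pandas 2.3.3, numpy 2.4.6, scipy 1.17.1 and matplotlib 3.10.9 were used.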

Additional observations from a re-analysis of the deposited data

How the results depend on the processing

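Genes called over the whole table numbered 0 with limma after quantile normalization, with a pseudocount of 0.1, with every gene kept whatever its level, with protein-coding genes only, with limma-voom on implied reads, and without control 2 and 3 or KO 1 and 3 together. With a replicate block the count was also 0, and the numbers are not shown to pair the libraries: deviations of same-numbered libraries correlated at 0.112, 0.0202 and 0.0175, and control 2 and control 3 did not correlate best with their own number. Leaving out 1 library gave 0 to 363 genes for the controls and 0 to 1821 over all libraries, the highest without KO 2, and 0 to 1 of the 9 genes, Zbtb7b without control 1. Differences of Zbtb7b, Cd4, Cd40lg, Bcl6, Runx1, Gata3 and Ikzf2 kept their sign in 14 of 14 alternatives, although quantile normalization moved the median of all genes from 0.10 to -0.12. Foxp3 turned to -0.10 after quantile normalization, to -0.45 without control 2 and 3, and to between -0.17 and 0.55 with 1 library left out. Runx3 turned to -0.65 without control 2 and 3. With control 1 and KO 2 only, an alternative chosen after seeing the data, Runx3 was at -0.34, Foxp3 at -0.28 and Gata3 at -0.07. The cause was not tested. Fits without control 2 and 3 or KO 1 and 3 leave 1 library in a group, assumed to vary like the others. Ratio differences kept their sign with a pseudocount of 0.1, with a replicate block and with each single library left out. They were not run without control 2 and 3 or KO 1 and 3 together. The permutation p of their 3 against 3 design cannot go below 0.1. KO 1 and KO 3, with the lowest totals, limit Cd40lg, Cd4 and Foxp3 most.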
